A study of Mus musculus with 24 samples.

Results

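The genes described are 10 histone demethylases that need molecular oxygen for their reaction, Kdm2a, Kdm2b, Kdm3a, Kdm3b, Kdm4a, Kdm4b, Kdm4c, Kdm5b, Kdm6b and Kdm7a. They were chosen by name from the enzymes with a Jumonji C domain, several of them as known targets of the hypoxia-inducible factors, and 10 of 10 were found among the 55487 genes listed and were among the 14541 genes tested. The 10 are not a full set of such enzymes, since 18 other genes of that domain, Kdm5a and Phf8 among them, were tested and are given further on. Their transcripts were measured by RNA sequencing of wild-type C2C12 myotubes, the fused and differentiated form of a mouse skeletal muscle cell line, in 24 libraries. All cultures were grown and differentiated under 5 % O2 to day 5, and then spent 2 h under 5 % or 1 % O2. They were left unstimulated (5 % CTRL and 1 % CTRL) or were contracted by repeated short bouts of electrical pulses after that exposure (5 % STIM and 1 % STIM), with 6 libraries in each of the 4 groups. The study describes the libraries of a group as biological replicates. A single cell line without nerve, vessels or other tissue was sampled, fresh medium was given before the exposure to 5 % or 1 % O2, and stimulated cultures had it changed before and after the pulses. Whether the unstimulated cultures had a change at the time that followed the pulses is not given in the sources used here.

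Histone demethylases with a Jumonji C domain remove methyl groups from lysines of histones by a reaction that consumes O2 and 2-oxoglutarate and needs iron in the active site. The residue they act on differs between families. KDM3 enzymes act on H3K9, KDM4 enzymes on H3K9 and H3K36, KDM2 enzymes on H3K36, KDM5 enzymes on H3K4, KDM6 enzymes on H3K27, and KDM7A on H3K9 and H3K27. Methylation of H3K9 and H3K27 is mostly found at silent genes, and methylation of H3K4 at active promoters. Several of these genes, Kdm3a and Kdm4b among them, are known targets of the hypoxia-inducible factors (HIF), transcription factors that are stabilized when O2 is low. Values given here are levels of transcript, which do not measure the activity of the enzymes or the methylation of histones.

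Libraries held 26541858 to 28173745 reads, and values are normalized counts, which are reads divided by the size factor of the library. The 15 myotube markers examined, such as Myog and Ckm, were all detected and summed to between 582486 and 702995 normalized counts per library. Of the markers of other cells, the 8 of undifferentiated or cycling myoblasts summed to between 4052 and 6999. Those of fibroblasts summed to between 1278 and 1726, those of endothelium and blood to between 2.0 and 13.3, and those of adipocytes to 7.2 at most, with Plin1 and Cidec at 0 in all groups. The myotube sum was 645996 to 702995 in 5 % CTRL and 607704 to 652658 in 1 % CTRL. The myoblast sum was 4052 to 4528 in 5 % CTRL and 4732 to 6999 in 1 % CTRL, with 5 of its 8 genes called higher and 2 lower. After stimulation these sums overlapped between the O2 levels, at 582486 to 664375 and 592513 to 652375 for myotube markers and at 4469 to 5294 and 4859 to 6031 for myoblast markers under 5 % and 1 % O2. The part of either in the differences below was not tested. In bulk RNA, fewer cells of a type and less RNA per cell cannot be told apart. As a check of the exposure, 10 of 10 HIF target genes were higher in 1 % CTRL than in 5 % CTRL, by log2 fold changes between 0.50 and 3.97, the largest for Adm, the adrenomedullin gene. In 1 % STIM against 5 % STIM 9 of them were higher and 1 lower, and in 1 % STIM against 1 % CTRL all 10 were lower, by log2 fold changes between −0.74 and −0.36. Stimulation under 5 % O2 raised 2 and lowered 6 of these targets. The shares of all genes tested that were called are given with each comparison below.

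Promoter sequences of 4 of the genes are shown because HIF binds the core letters ACGTG or GCGTG, and because these genes differed widely in how their transcripts moved with O2. Kdm3a and Kdm5b had the largest changes of the members with a sequence, and Kdm4a and Kdm4c were not called at rest. Each window runs from 250 bases before to 50 bases after a RefSeq transcript start (GRCm38.p6), 5′ to 3′ on the strand of the gene. Capitals mark ACGTG or GCGTG on either strand, read as CACGT or CACGC on the other one. The windows are chr6:71632868-71633167 (minus strand) for Kdm3a, chr1:134559928-134560227 (plus) for Kdm5b, chr4:118179994-118180293 (minus) for Kdm4a and chr4:74251629-74251928 (plus) for Kdm4c.
Kdm3a: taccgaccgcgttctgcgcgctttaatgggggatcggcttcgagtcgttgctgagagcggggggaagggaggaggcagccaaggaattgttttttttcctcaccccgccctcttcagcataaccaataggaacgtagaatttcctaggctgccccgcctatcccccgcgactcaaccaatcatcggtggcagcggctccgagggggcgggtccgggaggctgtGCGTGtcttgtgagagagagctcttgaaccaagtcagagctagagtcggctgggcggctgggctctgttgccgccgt
Kdm5b: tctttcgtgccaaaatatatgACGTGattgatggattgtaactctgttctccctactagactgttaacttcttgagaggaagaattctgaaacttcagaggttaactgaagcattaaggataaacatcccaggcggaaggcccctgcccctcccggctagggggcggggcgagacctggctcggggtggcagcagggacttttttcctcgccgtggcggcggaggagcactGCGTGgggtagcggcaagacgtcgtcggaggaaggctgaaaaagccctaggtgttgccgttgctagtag
Kdm4a: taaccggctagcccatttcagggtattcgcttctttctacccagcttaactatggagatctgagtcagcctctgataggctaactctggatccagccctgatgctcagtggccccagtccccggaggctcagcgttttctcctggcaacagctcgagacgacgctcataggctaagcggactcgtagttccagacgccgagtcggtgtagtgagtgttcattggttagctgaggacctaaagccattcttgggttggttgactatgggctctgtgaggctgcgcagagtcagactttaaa
Kdm4c: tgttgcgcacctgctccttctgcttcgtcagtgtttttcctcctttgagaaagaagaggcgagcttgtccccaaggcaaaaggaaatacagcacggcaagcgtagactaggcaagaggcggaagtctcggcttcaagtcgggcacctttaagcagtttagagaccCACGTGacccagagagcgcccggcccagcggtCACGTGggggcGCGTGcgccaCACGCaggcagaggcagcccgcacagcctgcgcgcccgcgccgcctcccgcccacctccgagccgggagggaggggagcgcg
The Kdm3a window held 1 match, the Kdm5b window 2 and the Kdm4a window none. The Kdm4c window, which starts downstream of the first annotated start of that gene, held 4 marked stretches, and another window at that first start held none, as did 2 other windows further into Kdm3a. A pair of these are CACGTG, which holds the core on both strands and is also the letters of an E-box, present in 7.2 % of windows. Windows of 6 of the 10 genes were used here (12 windows, of which 8 held a match). No window of Kdm2a, Kdm3b, Kdm4b or Kdm6b was examined, which does not mean that the source holds none for them. Matches near the starts of these genes, among them Kdm3b, the member called lower, were therefore not counted. Among all 32851 windows, 43.8 % held at least 1 match, 17.2 % held at least 2 stretches and 6.4 % at least 3. Of the members not shown, the windows of Kdm2b held 1 to 3 stretches and that of Kdm7a held 2. The 4 windows shown were chosen with the changes known. Whether the number of matches relates to the changes described below was not tested. A match is a description of letters, not of binding.

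The comparison of 1 % CTRL with 5 % CTRL asks how the transcripts of these O2-consuming enzymes responded to 2 h of low O2 at rest. Of the 10 genes, 7 were higher and 1 was lower under 1 % O2 (limma on log2 of the normalized count + 1, Benjamini-Hochberg adjusted p under 0.05 over all genes tested). Kdm3a rose most, followed by Kdm5b and Kdm4b, then Kdm2b, Kdm6b, Kdm7a and Kdm2a, whereas Kdm3b fell slightly and Kdm4a and Kdm4c were not called. Among all genes tested, 29.4 % were called higher and 30.5 % lower in the same comparison. The libraries of both groups did not overlap for 8 of the 10 genes, compared with 38.2 % of all genes. The median log2 fold change of the 10 genes was 0.45, where that of all genes tested was 0.001. When every library was scaled to an equal total, the share of higher genes among all calls went from 49.0 % to 62.7 %, and 8 of the 10 genes were called higher and 1 lower.

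**Figure D1:**
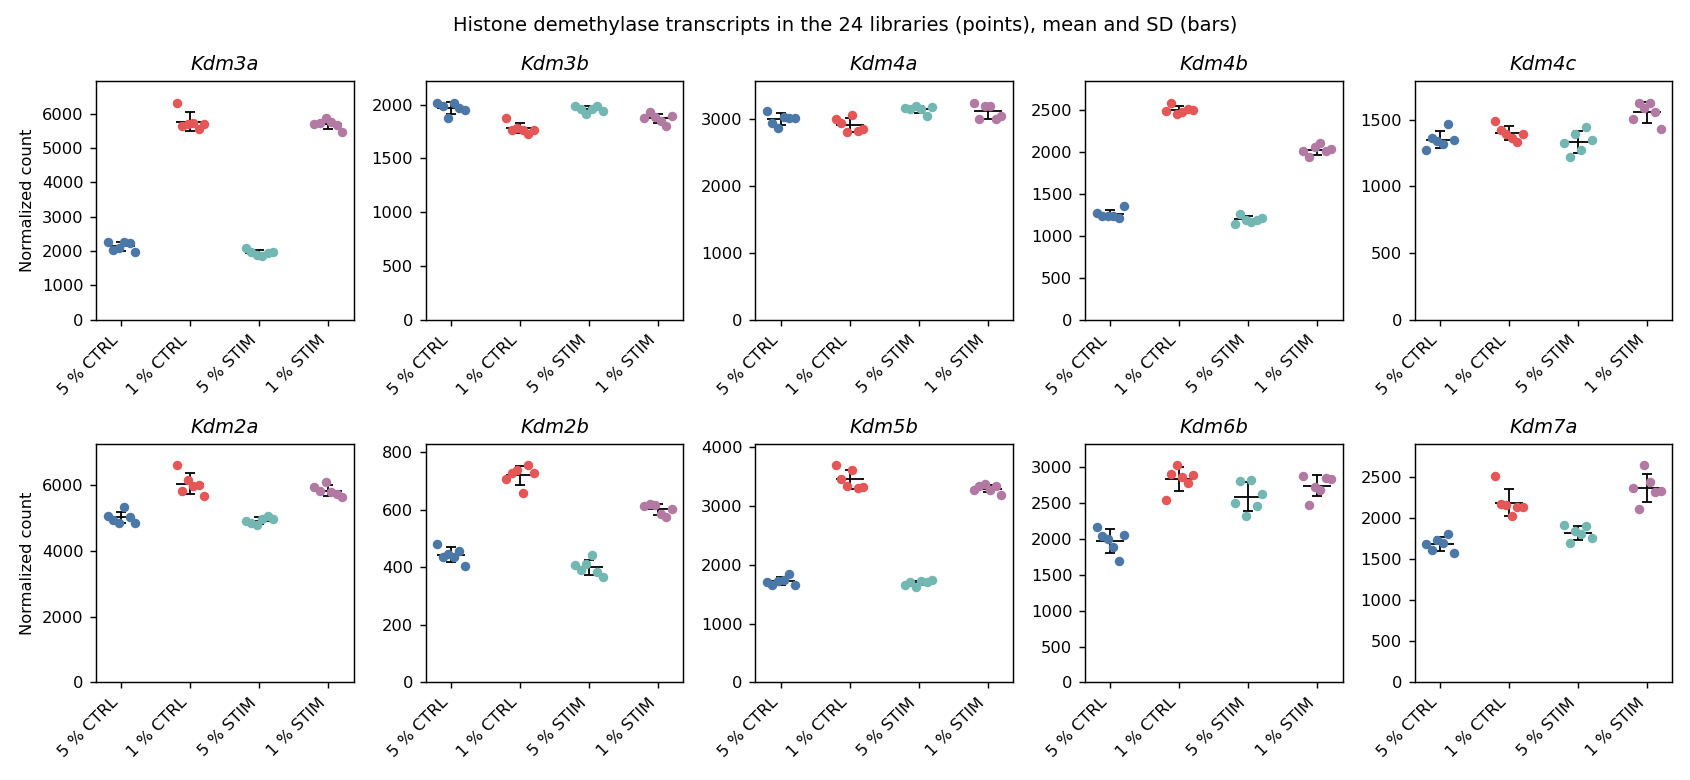
Normalized counts (vertical axis, from 0) of the 10 histone demethylase genes in each of the 24 libraries, by group of 6. Points are libraries, and black bars are the mean and SD. The points of 1 % CTRL and 1 % STIM lie above those of 5 % CTRL and 5 % STIM for Kdm3a, Kdm4b, Kdm2a, Kdm2b, Kdm5b and Kdm7a, and the groups overlap for Kdm4a.

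Kdm3a, which encodes an H3K9 demethylase, lies on chromosome 6 from 71588972 to 71632990 (GRCm38, minus strand). It had between 1970 and 2263 normalized counts in 5 % CTRL (median 2167) and between 5547 and 6319 in 1 % CTRL (median 5700.0). Every library under 1 % O2 held more than 2 times the level of every library under 5 % O2. The means were 2144 ± 127 and 5771 ± 277 (SD, n = 6), a 2.69-fold difference and a log2 fold change of 1.43 ± 0.04 (SE, limma adjusted p = 1.62e-26). Only 209 of the 14541 genes, or 1.44 %, had a higher log2 fold change. The highest value, 6319, was that of replicate 1 of 1 % CTRL, which also had the highest myoblast marker sum, 6999, and without it the log2 fold change was 1.40. Its relative Kdm3b, on chromosome 18 from 34777047 to 34838660, moved in the opposite direction. Kdm3b had 1874 to 2018 normalized counts in 5 % CTRL (median 1978) and 1732 to 1873 in 1 % CTRL (median 1766), so that the groups were only just apart. Its log2 fold change was −0.14 ± 0.03 (SE, limma adjusted p = 3.51e-05), and it was −0.06 with an adjusted p of 0.0384 when all libraries were set to an equal total. An opposite-strand transcript, Gm26538, covers 24.6 % of the exon bases of Kdm3b. The counting did not use the strand, so reads of these genes cannot be told apart, and no value of Gm26538 was used here.

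Among the KDM4 genes, whose products act on H3K9 and H3K36, only Kdm4b was called at rest. Kdm4b (chromosome 17, 56326062 to 56402870) had 1210.1 to 1358 normalized counts in 5 % CTRL (median 1239) and 2458 to 2589 in 1 % CTRL (median 2499.6). The groups lay far apart compared with their own spread, with means of 1258 ± 52.5 and 2507 ± 45.6 (SD, n = 6) and a log2 fold change of 0.99 ± 0.03 (SE, limma adjusted p = 1.3e-23). Kdm4a (chromosome 4, 118136957 to 118180043) had 2865 to 3124 normalized counts in 5 % CTRL and 2813 to 3069 in 1 % CTRL, and these ranges overlapped over most of their length. Its log2 fold change was −0.04, with a 95 % interval from −0.10 to 0.02 (adjusted p = 0.24 from limma). Kdm4c (chromosome 4, 74242497 to 74405860) had 1272 to 1468 normalized counts in 5 % CTRL and 1334 to 1493 in 1 % CTRL, which overlapped too. Its log2 fold change was 0.05, with a 95 % interval from −0.03 to 0.13 (adjusted p = 0.287 from limma). With all libraries set to an equal total it was 0.13 and was called (adjusted p = 0.00543), and that of Kdm4a turned to 0.04. No 75-base stretch of exon of these 3 genes was shared with another gene.

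Kdm5b, which encodes an H3K4 demethylase, lies on chromosome 1 from 134560171 to 134635285 (plus strand). It had 1654 to 1842 normalized counts in 5 % CTRL (median 1725) and 3307 to 3693 in 1 % CTRL (median 3398). The groups were far apart, with means of 1724 ± 68.5 and 3455 ± 163 (SD, n = 6) and a log2 fold change of 1.00 ± 0.03 (SE, limma adjusted p = 1.09e-23). Higher log2 fold changes were found for 3.67 % of the genes tested.

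Both H3K36 demethylases of the KDM2 family were higher under 1 % O2. Kdm2b, whose protein also binds unmethylated CpG islands and belongs to a Polycomb complex, lies on chromosome 5 from 122870665 to 122989823 and had 405 to 481 normalized counts in 5 % CTRL (median 442) and 659 to 753 in 1 % CTRL (median 726). The groups did not overlap, and the log2 fold change was 0.69 ± 0.05 (SE, limma adjusted p = 1.73e-14). Of its 75-base stretches of exon, 11.4 % are shared with other genes, among them the opposite-strand Rnf34, which itself went from 864 ± 17.8 to 1085 ± 54.7 normalized counts (SD, n = 6), and A930024E05Rik, which went from 11.3 ± 3.76 to 51.4 ± 4.35. What their reads add to the value of Kdm2b was not tested. Kdm2a (chromosome 19, 4314419 to 4398285) shares no such stretch. It had 4871 to 5329 normalized counts in 5 % CTRL (median 5008) and 5686 to 6610 in 1 % CTRL (median 6002), again without overlap, and its log2 fold change was 0.27 ± 0.03 (SE, limma adjusted p = 3.42e-09).

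Of the genes for enzymes that act on H3K27, Kdm6b (chromosome 11, 69398508 to 69413675) encodes JMJD3, which is known as a gene induced by inflammatory and growth signals. It had 1695 to 2175 normalized counts in 5 % CTRL (median 2022) and 2544 to 3028 in 1 % CTRL (median 2883). The groups did not overlap although their spread was wide, and the log2 fold change was 0.52 ± 0.05 (SE, limma adjusted p = 3.71e-09). The antisense gene Kdm6bos, with which Kdm6b shares 1.18 % of its 75-base stretches, had a mean of at most 13.5 normalized counts in any group. Kdm7a (chromosome 6, 39136623 to 39206789) had 1569 to 1809 normalized counts in 5 % CTRL (median 1692) and 2026 to 2512 in 1 % CTRL (median 2143). Its groups did not overlap either, and the log2 fold change was 0.37 ± 0.05 (SE, limma adjusted p = 2.73e-08). The highest value, 2512, came from replicate 1 of 1 % CTRL, and the log2 fold change without that library was 0.33 (adjusted p = 1.19e-08 from limma).

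The comparison of 1 % STIM with 5 % STIM asks the same question in contracting myotubes, with other libraries on both sides. Again 7 of the 10 genes were higher and 1 was lower under 1 % O2. Among all genes tested, 29.0 % were called higher and 28.4 % lower. Kdm3a, Kdm5b, Kdm4b, Kdm2b, Kdm7a and Kdm2a were called higher as at rest, Kdm4c was called in addition, Kdm6b was not, and Kdm3b was again lower. The groups did not overlap for 6 of the 10 genes and for 37.3 % of all genes. The median log2 fold change was 0.31 for the 10 genes and −0.001 for all genes tested. With all libraries set to an equal total, the share of higher genes among all calls went from 50.4 % to 63.2 %, and 8 of the 10 genes were called, each of them higher.

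Kdm3a had 1864 to 2077 normalized counts in 5 % STIM (median 1955) and 5463 to 5887 in 1 % STIM (median 5713). The gap was as clear as at rest, with a log2 fold change of 1.55 ± 0.04 (SE, limma adjusted p = 3.48e-27), and 0.74 % of the genes tested had a higher one. Kdm5b had 1625 to 1737 normalized counts in 5 % STIM and 3193 to 3371 in 1 % STIM, a log2 fold change of 0.96 ± 0.03 (SE, limma adjusted p = 3.48e-23). Kdm4b had 1139 to 1264 normalized counts in 5 % STIM and 1939.7 to 2109 in 1 % STIM, a log2 fold change of 0.76 ± 0.03 (SE, limma adjusted p = 2.49e-20). The groups of these 3 genes were apart. Kdm2b (log2 fold change 0.59), Kdm7a (0.38) and Kdm2a (0.25) also had groups without overlap, with adjusted p-values of 2.92e-08 or less from limma.

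The remaining members differed less between 1 % STIM and 5 % STIM. Kdm4c had 1219 to 1446 normalized counts in 5 % STIM (median 1335) and 1431 to 1628 in 1 % STIM (median 1574), so that the ranges met at their ends, and its log2 fold change was 0.22 ± 0.04 (SE, limma adjusted p = 1.93e-05). Kdm6b had 2319 to 2821 normalized counts in 5 % STIM (median 2569) and 2482 to 2878 in 1 % STIM (median 2785). These ranges overlapped widely, and the log2 fold change was 0.08 with a 95 % interval from −0.03 to 0.20 (adjusted p = 0.194 from limma). It was 0.16 and called (adjusted p = 0.0171) with all libraries set to an equal total. Kdm4a had a log2 fold change of −0.02 with a 95 % interval from −0.08 to 0.04 (adjusted p = 0.663 from limma), and of 0.05 after rescaling. Kdm3b had 1914 to 1988 normalized counts in 5 % STIM and 1804 to 1929.9 in 1 % STIM, with a log2 fold change of −0.06 that passed the threshold narrowly (adjusted p = 0.0495 from limma). It was lost when any library other than replicate 3 of 5 % STIM or replicate 2 of 1 % STIM was left out, with adjusted p-values from 0.0509 without replicate 6 to 0.12 without replicate 5 of 1 % STIM. It was also lost with a pseudocount of 10 (0.051), with no filter on low values (0.107) and with the compared groups fitted alone (0.0696). edgeR and DESeq2 on recovered reads kept the call of Kdm3b as lower. Rescaling brought its log2 fold change to 0.01 (adjusted p = 0.857).

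**Figure D2:**
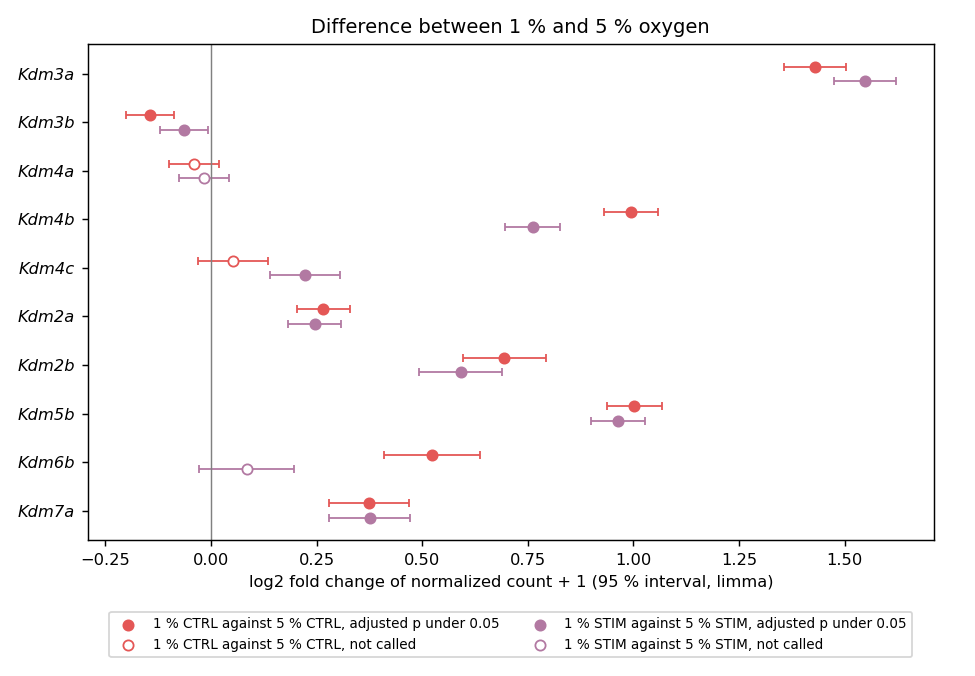
Log2 fold change of the normalized count + 1 between 1 % and 5 % O2 (horizontal axis, with 95 % intervals from limma) of the 10 genes, in unstimulated (red) and stimulated (purple) myotubes. Filled points passed an adjusted p of 0.05. The intervals of both comparisons lie close together for Kdm3a, Kdm5b, Kdm2a and Kdm7a, and apart for Kdm4b and Kdm6b. Those of Kdm4c are only just apart, with the stimulated one further to the right.

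Electrical stimulation under 5 % O2 raised Kdm6b and lowered Kdm3a and Kdm2b slightly, and the other 7 genes were not called with all libraries. For comparison, 9.44 % of all genes tested were called higher and 12.0 % lower. Kdm6b was the only member without overlap between 5 % STIM and 5 % CTRL, which was the case for 11.1 % of all genes. Its 6 libraries lay between 1695 and 2175 normalized counts without stimulation and between 2319 and 2821 with it. The means were 1978 ± 167 and 2593 ± 202 (SD, n = 6), a log2 fold change of 0.39 ± 0.05 (SE, limma adjusted p = 4.3e-06), and 5.87 % of genes had a higher one. Kdm3a had 1970 to 2263 normalized counts in 5 % CTRL and 1864 to 2077 in 5 % STIM, which overlapped, with a log2 fold change of −0.14 ± 0.04 (SE, limma adjusted p = 0.00553). Kdm2b had 405 to 481 and 365 to 442 normalized counts, with a log2 fold change of −0.15 ± 0.05 (SE, limma adjusted p = 0.0216). That call was lost without replicate 1 of 5 % CTRL or without replicate 6 of 5 % STIM (adjusted p = 0.0666 in both), with the compared groups fitted alone (0.0525) and after rescaling (0.078). The median log2 fold change of the 10 genes was −0.02, beside −0.01 for all genes tested. Rescaling moved the share of higher genes among all calls from 44.0 % to 62.1 %, and added Kdm4a (log2 fold change 0.10) and Kdm7a (0.14) to the genes called higher. Kdm4b (log2 fold change −0.07, adjusted p = 0.103) passed only without replicate 2 of 5 % STIM (adjusted p = 0.0492), and Kdm7a with the compared groups fitted alone (0.0372). As a check of the stimulation, 4 of 14 immediate early genes were higher and 1 lower, with the largest change in Nr4a1 (log2 fold change 1.27, adjusted p = 1.26e-17 from limma).

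Under 1 % O2, stimulation was followed by lower Kdm4b and Kdm2b and slightly higher Kdm4c and Kdm4a, with 6 genes not called by limma. edgeR and DESeq2 on recovered reads each called 5 of the 10 genes, Kdm3b (adjusted p = 0.0402 and 0.0395) in addition, and 3347 and 3323 of the 14541 genes. Among all genes tested, 11.5 % were called higher and 10.8 % lower, and the groups did not overlap for 2 of the 10 genes and for 11.2 % of all genes. Kdm4b had 2458 to 2589 normalized counts in 1 % CTRL and 1939.7 to 2109 in 1 % STIM. All libraries of 1 % STIM were below all of 1 % CTRL, and the log2 fold change was −0.31 ± 0.03 (SE, limma adjusted p = 2.13e-09). Kdm2b went from 659 to 753 normalized counts in 1 % CTRL to between 573 and 619 in 1 % STIM, also without overlap, and its log2 fold change was −0.25 ± 0.05 (SE, limma adjusted p = 0.000115). Kdm4c had 1334 to 1493 normalized counts in 1 % CTRL and 1431 to 1628 in 1 % STIM, which overlapped, with a log2 fold change of 0.15 (adjusted p = 0.00597 from limma). Kdm4a, with a log2 fold change of 0.09, was called (adjusted p = 0.0168), but not without replicate 1 of 1 % STIM (adjusted p = 0.0508). Kdm6b, the gene raised by stimulation under 5 % O2, had a log2 fold change of −0.05 with a 95 % interval from −0.16 to 0.07 (adjusted p = 0.614 from limma). Kdm7a (0.11, adjusted p = 0.0881) and Kdm3b (0.07, adjusted p = 0.0579) were not called by limma with all libraries, but were without replicate 1 of 1 % CTRL (adjusted p = 0.00575 and 0.0205). Kdm7a was also called without replicate 2 of 1 % STIM (0.0203), and Kdm3b without replicate 5 of that group (0.0374). Rescaling moved the share of higher genes among all calls from 51.4 % to 62.4 % and added Kdm7a and Kdm3b. Of the immediate early genes 5 were higher and 3 lower, again led by Nr4a1 (log2 fold change 1.20). The median log2 fold change was −0.03 for the 10 genes and −0.003 for all genes tested.

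**Figure D3:**
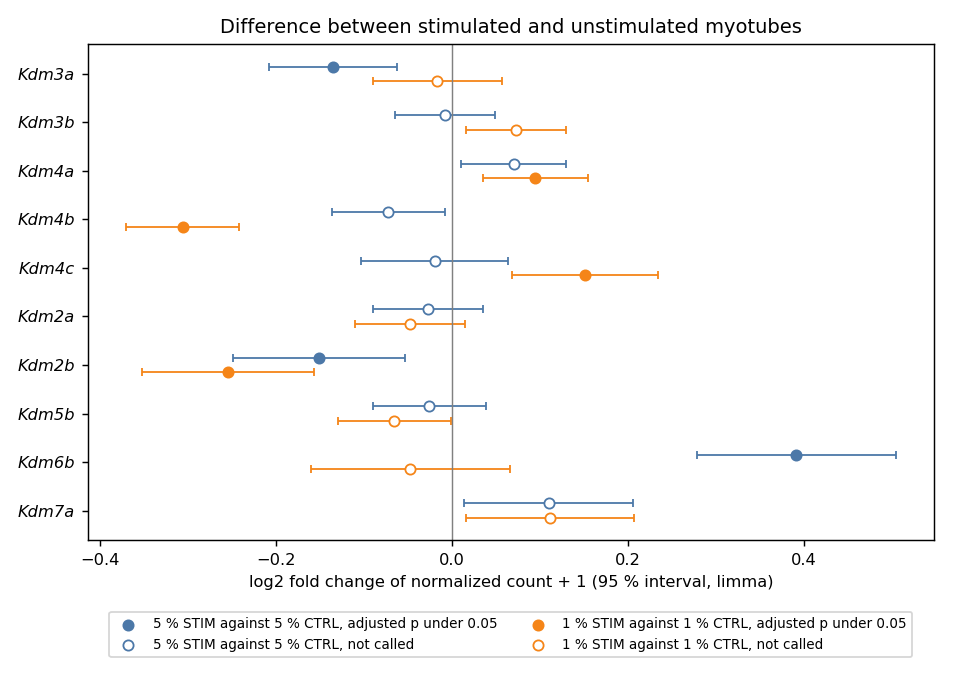
Log2 fold change of the normalized count + 1 between stimulated and unstimulated myotubes (horizontal axis, with 95 % intervals from limma) of the 10 genes, under 5 % O2 (blue) and 1 % O2 (orange). Filled points passed an adjusted p of 0.05. Kdm6b stands to the right under 5 % O2 only, and Kdm4b stands further to the left under 1 % O2 than under 5 % O2.

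Whether stimulation changed a gene differently under 1 % and 5 % O2 was tested by the interaction, which is equally the difference between the responses to O2 with and without stimulation. It was called for Kdm6b and Kdm4b, both negative, and for none of the 10 genes in the positive direction, while 5.43 % of all genes were called negative and 5.88 % positive. At an unadjusted p under 0.05, 3 of the 10 genes were positive and 2 negative, where 13.4 % of all genes were positive and 11.3 % negative. edgeR and DESeq2 on recovered reads each called Kdm4c as the 1 positive gene and 2 negative ones, beside 11.4 % and 12.5 % of all genes in either direction. For Kdm6b the mean rose from 1978 to 2593 normalized counts on stimulation under 5 % O2 and went from 2838 to 2746 under 1 % O2, so that 5 % CTRL lay below the other 3 groups, whose ranges overlapped one another. The interaction was −0.44 ± 0.08 on the log2 scale (SE, limma adjusted p = 0.000289). For Kdm4b the mean went from 1258 to 1197 under 5 % O2 and from 2507 to 2028 under 1 % O2, an interaction of −0.23 ± 0.04 (SE, limma adjusted p = 0.000434). Leaving out any single library left the interaction between −0.47 and −0.40 for Kdm6b and between −0.26 and −0.22 for Kdm4b, with adjusted p-values up to 0.00127. Kdm4c had an interaction of 0.17 just outside the threshold (adjusted p = 0.0508 from limma), and Kdm3a one of 0.12 (adjusted p = 0.136). Both passed without replicate 1 of 1 % CTRL (adjusted p = 0.0194 and 0.0306), which brought the number of genes called to 4. Kdm4c also passed without replicate 1 of 5 % CTRL (0.0333), replicate 3 or 5 of 5 % STIM (0.0428 and 0.0237) or replicate 6 of 1 % STIM (0.0205). The median interaction of the 10 genes was −0.01, and that of all genes tested 0.01.

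Levels between genes were compared per kilobase of annotated exon. In 5 % CTRL, Kdm4a had the highest level, 519 ± 15.3 normalized counts per kilobase (SD, n = 6), followed by Kdm2a with 348 ± 11.8. Kdm6b (284), Kdm3a (261), Kdm4b (257) and Kdm4c (232) came next, and neighbours in this stretch of the order did not differ beyond the range of their libraries. Kdm7a (168), Kdm3b (140), Kdm5b (104) and Kdm2b (40.8) followed, each below the range of the one before. By the longest transcript, Kdm3a (442) in 5 % CTRL followed Kdm4a (644) and Kdm2a (586), which overlapped, and Kdm3b (309) and Kdm5b (198) lay above Kdm7a (176). In 1 % CTRL, Kdm3a came first with 702 ± 33.6 normalized counts per kilobase. Kdm4b (512) and Kdm4a (505) overlapped behind it, as did Kdm2a (419) and Kdm6b (408), and then Kdm4c (240), Kdm7a (217) and Kdm5b (209). Kdm3b (126) and Kdm2b (66.1) were last. In 5 % STIM, Kdm4a (545) was again first and Kdm6b (373) moved up to overlap Kdm2a (341), while Kdm3a was at 237. In 1 % STIM, Kdm3a (693) and Kdm4a (539) led, and Kdm4b (414), Kdm2a (405) and Kdm6b (395) overlapped behind them. Dividing by the longest transcript instead kept 4 of the 10 positions in the order over the 24 libraries, while Kdm3a was first in 1 % CTRL and 1 % STIM and Kdm4a first in 5 % CTRL and 5 % STIM by either length.

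The summed level of the 10 genes was 2354 ± 39.5 normalized counts per kilobase in 5 % CTRL and 3405 ± 76.8 in 1 % CTRL, and after stimulation 2429 ± 23.2 and 3336 ± 68.9 (SD, n = 6). The libraries of 1 % O2, between 3257 and 3548, were all above those of 5 % O2, between 2309 and 2445. Kdm3a made up 11.1 % of this sum in 5 % CTRL and 20.6 % in 1 % CTRL, and Kdm4a went from 22.1 % to 14.8 %. Kdm6b made up 15.3 % in 5 % STIM and between 11.8 % and 12.1 % in the other groups. The members were chosen by name and leave out other histone demethylases, so this sum is not that of all enzymes of the cell. Sum and shares used the union of exons only. The longest transcript changes the levels of single genes unequally, so the shares depend on the length used.

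Ratios between related genes within a library do not depend on the size factor. They were taken of counts and not per length, so what they show is how the balance differed between groups and not which gene had the higher level. The log2 ratio of Kdm3a to Kdm3b was 0.02 to 0.19 in 5 % CTRL and 1.67 to 1.75 in 1 % CTRL, and it was −0.07 to 0.06 in 5 % STIM and 1.53 to 1.65 in 1 % STIM. All libraries of 1 % O2 had a higher ratio of these H3K9 demethylase transcripts than all libraries of 5 % O2. The log2 ratio of Kdm4b to Kdm4a was −1.32 to −1.15 in 5 % CTRL and −0.31 to −0.16 in 1 % CTRL, and after stimulation it was −1.48 to −1.32 under 5 % O2 and −0.69 to −0.58 under 1 % O2. All libraries of 1 % STIM had a lower ratio than those of 1 % CTRL. Kdm5b was compared with Kdm5a, another H3K4 demethylase of the KDM5 family that is known to sense O2. Their log2 ratio was −0.82 to −0.65 in 5 % CTRL and 0.44 to 0.54 in 1 % CTRL, without overlap, with −0.86 to −0.75 in 5 % STIM and 0.19 to 0.36 in 1 % STIM. Kdm5a itself was lower under 1 % O2 at rest, with 2907 ± 107 normalized counts in 5 % CTRL and 2484 ± 127 in 1 % CTRL (SD, n = 6). The ratio therefore holds a fall of Kdm5a beside the rise of Kdm5b. The log2 ratio of Kdm6b to Kdm6a, which encodes another H3K27 demethylase of the KDM6 family, overlapped between all groups, at 0.52 to 1.05 under 5 % O2 and 0.97 to 1.38 under 1 % O2 at rest, and at 0.86 to 1.36 and 0.68 to 1.07 after stimulation. That of Kdm7a to its relative Phf8 was 0.53 to 0.73 in 5 % CTRL and 1.12 to 1.33 in 1 % CTRL, without overlap. It was 0.75 to 0.95 in 5 % STIM and 1.16 to 1.45 in 1 % STIM. The log2 ratio of Kdm2b to Kdm2a was −3.61 to −3.39 in 5 % CTRL and −3.22 to −2.97 in 1 % CTRL. After stimulation it was −3.76 to −3.49 under 5 % O2 and −3.32 to −3.23 under 1 % O2.

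**Figure D4:**
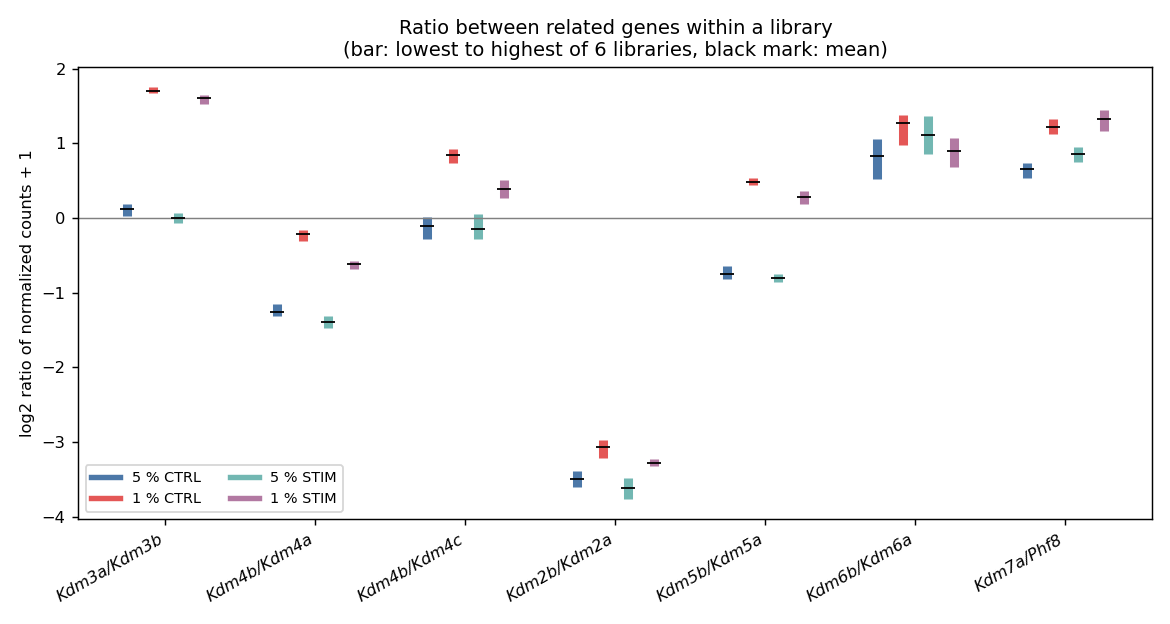
Log2 ratio of the normalized counts + 1 of related genes within a library (vertical axis), by group. Coloured bars run from the lowest to the highest of 6 libraries, and black marks are means. All pairs except Kdm6b/Kdm6a, which overlaps, stand higher in both 1 % groups than in both 5 % groups.

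Other proteins with a Jumonji C domain were examined beside the 10 members. Of 21 such genes listed, 18 were tested, and between 1 % CTRL and 5 % CTRL 3 were higher and 10 lower, with a median log2 fold change of −0.16. The 3 largest changes were those of Riox1, a ribosomal oxygenase (−1.02), Hr, a corepressor with H3K9 demethylase activity (−0.71), and Jmjd6 (0.61), with adjusted p-values of 7.07e-11 or less from limma. In 1 % STIM against 5 % STIM, 5 were higher and 8 lower, again led by Riox1 (−0.86), Hr (−0.73) and Jmjd6 (0.56). Here 29.0 % of all genes were higher and 28.4 % lower. On stimulation, 4 of the 18 were lower and 14 not called under 5 % O2, led by Kdm5c (−0.20). Under 1 % O2 4 were higher and 4 lower, with the largest changes in Jmjd1c (0.46), Hspbap1 (0.38) and Kdm6a (0.32). The shares of all genes called higher and lower on stimulation were 9.44 % and 12.0 % under 5 % O2. They were 11.5 % and 10.8 % under 1 % O2. Jmjd1c, the other KDM3-type gene, had 3316 ± 161 normalized counts at rest under 5 % O2 and 2308 ± 157 under 1 % O2, and 3496 ± 124 and 3168 ± 202 after stimulation (SD, n = 6). It was lowest in 1 % CTRL, and its interaction was 0.38 ± 0.06 (SE, limma adjusted p = 2.12e-05), opposite in sign to those of Kdm4b and Kdm6b. Kdm4d, Kdm5d and Uty were not tested because of low counts.

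Of the flavin-dependent histone demethylases, which use O2 but neither iron nor 2-oxoglutarate, Kdm1a had a log2 fold change of 0.10 between 1 % CTRL and 5 % CTRL (adjusted p = 0.00707 from limma) and of 0.16 between 1 % STIM and 5 % STIM (adjusted p = 5.32e-05), and Kdm1b was not called in either. All 3 TET genes, whose enzymes oxidize methylated cytosine in DNA by the same chemistry as the Jumonji enzymes, were higher in 1 % CTRL than in 5 % CTRL. So were 29.4 % of all genes tested. Tet1 had the largest change, from 173 ± 17.6 to 447 ± 27.3 normalized counts (SD, n = 6), a log2 fold change of 1.37 (adjusted p = 1.69e-17 from limma). Tet2 and Tet3 had log2 fold changes of 0.32 and 0.14. Tet1 (1.04) and Tet2 (0.46) were also higher in 1 % STIM than in 5 % STIM. The interaction was negative for Tet1 (−0.33, adjusted p = 0.0326 from limma) and Tet3 (−0.22, adjusted p = 0.0022). Genes of the histone lysine methyltransferases, a family that adds the marks the demethylases remove, were listed by name. Of these, 9 of 20 were higher and 8 lower between 1 % CTRL and 5 % CTRL, with a median log2 fold change of 0.01. Both H3K27 methyltransferase genes were higher, Ezh2 by 0.71 and Ezh1 by 0.35 on the log2 scale. The largest changes after Ezh2 were in Kmt2e (0.51), listed with the H3K4 group by its name only, and in Setd2 (−0.43). Setd2 encodes an enzyme that places the last methyl group on H3K36. In 1 % STIM against 5 % STIM, 11 of the 20 were higher and 4 lower, led by Ezh2 (0.76), Kmt2e (0.53) and Ezh1 (0.49). Here 29.0 % of all genes were higher and 28.4 % lower. Stimulation was followed by 1 higher and 6 lower methyltransferase genes under 5 % O2, with the largest change in Suv39h2 (−0.28), an H3K9 methyltransferase. Under 1 % O2 5 were higher, led by Ezh1 (0.32), and 15 not called. The shares of all genes called higher and lower were 9.44 % and 12.0 % for stimulation under 5 % O2. They were 11.5 % and 10.8 % under 1 % O2. The interaction was called positive for 4 of the 20 genes and not called for 16, with the largest value in Nsd1 (0.29), an H3K36 methyltransferase. Over all genes tested it was called positive for 5.88 % and negative for 5.43 %.

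Over the 24 libraries, the genes outside the 10 whose log2 values followed Kdm3a most closely, of the 10795 whose mean was 100 or more, were Zfp609, Shroom4, Dubr, Pfkfb3 and Narf, with Pearson's r between 0.990 and 0.994. The sizes differed. Pfkfb3, which encodes a regulator of glycolysis, went from a mean of 966 to 4765 normalized counts between 5 % CTRL and 1 % CTRL, and Zfp609 from 1259.6 to 1889. Among the members, Kdm5b (0.995), Kdm4b (0.964), Kdm2a (0.949) and Kdm2b (0.941) had the highest r with Kdm3a, and Kdm3b had a negative one (−0.77). For Kdm6b the closest genes were Fosl2, Lzts2, Ier3, 1700017B05Rik and Gigyf1, with r between 0.883 and 0.908. Ier3, an immediate early gene, had means of 510.0, 1627, 1005 and 1340.3 normalized counts in 5 % CTRL, 1 % CTRL, 5 % STIM and 1 % STIM, which, like Kdm6b, was lowest in 5 % CTRL and not higher in 1 % STIM than in 1 % CTRL. These points share the same 4 groups and the same libraries, so a high r mostly restates the differences between groups.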

How the data were processed

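RNA of 24 C2C12 myotube cultures was sequenced, 6 per group, with groups taken from the labels. The authors prepared stranded mRNA libraries, checked single-end reads with FastQC 0.11.7, aligned them to GRCm38 with STAR 2.5.4b and estimated counts per gene with RSEM 1.3.0, whose default settings ignore the strand. The signal deposited by the authors is the count after division by a size factor from DESeq2. A second deposited table, of the authors' own fold changes and p-values, was not used. Dividing by the smallest step between values gave back whole reads (100 % of values within 0.01 of a whole number). Genes with at least 10 normalized counts in at least 6 libraries were tested, and 99.94 % or more of every library's reads fell in them. No 2 replicates were alike within counting error (lowest chi-square per gene 2.54). Replicate 1 of 1 % CTRL stood furthest from its group, at 14.5 to 21.3 against the other libraries of that group. Those had 2.54 to 4.78 among themselves, and the highest value in any other group was 12.1.

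Log2(normalized count + 1) entered a single fit of the 4 groups in limma 3.58.1 (trend and robust, R 4.3.3), two-sided, with Benjamini-Hochberg adjustment over all genes tested and a threshold of 0.05. The p-values measure the spread between these libraries. Such fold changes understate the change of low genes. Alternatives were a pseudocount of 10, no filter, an adjusted p under 0.01, a replicate block, libraries rescaled to an equal total, the compared groups fitted alone, edgeR 4.0.16 (quasi-likelihood) and DESeq2 1.42.0 on recovered reads (8744 and 8630 genes called between 1 % CTRL and 5 % CTRL, against 8708 by limma), and each library left out. Levels per kilobase used the union of GENCODE M21 exons, and shared exon sequence was counted in words of 75 bases. The members are named in full. From each further list, up to 3 called genes with the largest change and a mean of at least 100 are named, with the largest change only for HIF targets and immediate early genes. Kdm5a, Kdm6a, Phf8, Kdm1b, Ezh1, Rnf34, A930024E05Rik and Kdm6bos were named outside this rule, as relatives or neighbours of members or of named genes, after their values were seen. Gm26538 was named for its overlap with the exons of Kdm3b, without a value. The members and lists were chosen with earlier results of these data known.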

Additional observations from a re-analysis of the deposited data

Results flagged for a closer look

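In 3 of the 40 sets of 6 libraries examined (10 genes in 4 groups), the highest or lowest library stood apart from the others by Dixon's criterion for 6 values at the 95 % level, and chance alone gives about 1 in 20. For Kdm3a the value of replicate 1 of 1 % CTRL was 6319.5 normalized counts, where the median of its group was 5700.0. For Kdm7a the same library had 2512.1 normalized counts, with a group median of 2143. That library also had the highest myoblast marker sum of the 24 libraries, 6999, and differed most from the rest of its group over all genes tested. For Kdm4a, replicate 5 of 5 % STIM was the lowest with 3049.7 normalized counts, with a group median of 3165.

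The response to stimulation differed between 1 % and 5 % O2 for 2 genes by the interaction test in limma. It was −0.233 on the log2 scale for Kdm4b and −0.439 for Kdm6b, with Benjamini-Hochberg adjusted p-values of 0.000434 and 0.000289. Without replicate 1 of 1 % CTRL these were −0.235 and −0.47.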

How the results depend on the processing

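Of the log2 fold changes of single genes under the alternatives other than left-out libraries, 313 kept their direction and their side of the threshold, 12 passed it in addition, 6 lost it and 9 turned in direction. All 9 that turned did so with all libraries set to an equal total, and none of these is past the threshold after rescaling. Kdm3b in 1 % STIM against 5 % STIM, counted only among those that turned, also lost its call. Rescaling shifted the median of all genes by 0.08 in 1 % CTRL against 5 % CTRL, 0.03 in 5 % STIM against 5 % CTRL, 0.07 in 1 % STIM against 5 % STIM, 0.02 in 1 % STIM against 1 % CTRL and −0.01 for the interaction. The rescaled values are 0.0402 for Kdm4a at rest, 0.004 for Kdm2a, 0.0237 for Kdm3b, 0.0115 for Kdm4c and 0.0055 for Kdm5b on stimulation under 5 % O2, 0.0063 for Kdm3b and 0.0543 for Kdm4a between 1 % STIM and 5 % STIM, 0.0043 for Kdm3a on stimulation under 1 % O2, and −0.0084 for the interaction of Kdm7a. The number of members called was 8 at rest with each library left out. It ranged from 2 to 4 for stimulation under 5 % O2, from 7 to 8 for 1 % STIM against 5 % STIM, from 3 to 6 for stimulation under 1 % O2, and from 2 to 4 for the interaction, with 4 when replicate 1 of 1 % CTRL was left out. Of the positions of the 10 genes in the order of level per kilobase, 4 were kept with the longest transcript and 8 with medians.

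Samples with the same replicate number did not deviate together (36 pairs, r between −0.148 and 0.155, 2 above 0.1). No shared effect of the number was found, which cannot tell whether same-number cultures were handled together. With a replicate block the members called were 8 at rest, 3 for stimulation under 5 % O2, 7 in 1 % STIM against 5 % STIM, 5 for stimulation under 1 % O2 and 2 for the interaction. Kdm3b was lost in 1 % STIM against 5 % STIM (adjusted p = 0.0533 from limma) and Kdm7a was added for stimulation under 1 % O2 (adjusted p = 0.0469). At a depth of at least 26541858 reads per library, the lowest value of any member was 365 normalized counts, for Kdm2b.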
